A study of Drosophila melanogaster with 3 samples.

Results

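A set of 33 genes that encode aminoacyl-tRNA synthetases in Drosophila melanogaster was examined for binding of topi-eGFP. They were taken by symbol from the 13968 protein-coding genes of the dm6 annotation. The symbol is an amino acid code followed by RS, with -m added for mitochondrial enzymes, and GluProRS was added. This rule leaves out alpha-PheRS and beta-PheRS, which are given separately below. The symbols gave 18 genes of the cytoplasmic class and 15 of the mitochondrial class. Topi is a zinc-finger protein of a meiotic arrest complex of the testis. The data are chromatin immunoprecipitations with an anti-GFP antibody, followed by sequencing (ChIP-seq), on 3 libraries from whole white prepupae of both sexes. All libraries come from 1 transgenic line with eGFP at the C terminus of topi, and the promoter that drives the fusion is not given in the sources used here. There is no second condition and no library from untagged animals, so peaks that would form without the tagged protein could not be separated out, and the cell types of the whole animal are mixed. The labels number the libraries as biological replicates 1 to 3, each with a biosample of its own, and do not say whether the animals were collected separately, so the spread between libraries may be technical in part.

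Aminoacyl-tRNA synthetases load each transfer RNA with its amino acid and so supply every ribosome with its substrates. Cytoplasmic enzymes serve the translation of nuclear genes, and mitochondrial enzymes, made in the cytoplasm and imported, serve the few proteins encoded in mitochondrial DNA. The classes used here are classes of symbols, not of measured location. No -m symbol was found for glycine, histidine, lysine, threonine or glutamine, so the class called cytoplasmic may hold enzymes that also serve mitochondria. The enzymes fall into a pair of unrelated catalytic classes, I and II, and in animals several cytoplasmic ones are held together with scaffold proteins in a multisynthetase complex. Every dividing or growing cell needs them, in whatever tissue it lies.

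The sequences under the peaks show where the signal lay. They come from the NCBI genome of the same assembly and are written 5' to 3' in the direction of the synthetase gene. The first 6 hold 75 bases on each side of the summit of the gene's strongest peak in the reproducible set, outside all exons. They are shown because the summits at these genes lie between the synthetase and its neighbour or just upstream of it. Capitals mark matches to the promoter motifs searched below, on either strand. The AsnRS window holds CGATA, read as TATCG on the strand shown, and the windows with no capitals hold none of the motifs. The last pair is limited to 30 bases, since those summits lie in transcribed leaders. The SerRS bases surround the summit of the strongest peak of the family, and the AlaRS bases surround a DNA replication-related element (DRE).
IleRS (chr3L:22288416-22288566, plus strand): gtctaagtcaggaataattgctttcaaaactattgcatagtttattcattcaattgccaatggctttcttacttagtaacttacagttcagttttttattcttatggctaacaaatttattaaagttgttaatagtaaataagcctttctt
GluProRS (chr3R:23958467-23958617, minus strand): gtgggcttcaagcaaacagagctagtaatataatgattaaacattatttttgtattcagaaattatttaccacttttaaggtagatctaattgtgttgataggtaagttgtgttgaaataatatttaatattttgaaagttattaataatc
ThrRS (chr2L:12103516-12103666, plus strand): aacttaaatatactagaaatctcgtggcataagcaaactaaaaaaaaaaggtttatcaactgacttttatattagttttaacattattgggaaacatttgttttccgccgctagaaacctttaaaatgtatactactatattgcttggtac
ArgRS (chrX:15844209-15844359, minus strand): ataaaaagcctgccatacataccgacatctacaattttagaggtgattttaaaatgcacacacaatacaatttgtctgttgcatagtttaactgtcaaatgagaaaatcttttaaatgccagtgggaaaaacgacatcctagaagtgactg
AsnRS (chr2L:19132152-19132302, minus strand): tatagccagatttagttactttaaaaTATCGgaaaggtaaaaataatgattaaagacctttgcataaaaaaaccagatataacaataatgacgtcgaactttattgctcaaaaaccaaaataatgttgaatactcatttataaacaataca
ArgRS-m (chr3R:7886854-7887004, plus strand): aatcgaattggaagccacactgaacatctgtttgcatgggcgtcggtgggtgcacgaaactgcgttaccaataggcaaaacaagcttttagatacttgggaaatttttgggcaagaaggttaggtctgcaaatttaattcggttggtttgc
SerRS (chr2L:3037363-3037392, minus strand): ctaaacagaaaatataaaaaaacattataa
AlaRS (chr2L:8381765-8381794, minus strand): atctctaaatcTATCGATAtctcatccagt

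Peaks are read here in 3 kinds of list made by the authors. The reproducible set passed their irreproducible discovery rate (IDR) threshold and holds 8424 peaks. The pooled relaxed list and each replicate's relaxed list hold 30000 peaks, background regions included. A gene counts as having a peak when a summit lies within 500 bp of any of its transcription start sites (TSSs). The signal of a peak is the authors' enrichment score against 1 shared control alignment, not scaled between libraries, so ranks (1 for the strongest peak of a list) are given beside it. Read depth is unknown, because peak lists hold no read counts. A missing peak means only that none reached the end of the list.

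Of the 33 synthetase genes, 10 had an IDR summit (30.3%), against a background of 24.3% of all protein-coding genes. The set as a whole lay near the background. In the pooled relaxed list 14 of 33 had a summit (42.4%, background 42.5%). The classes stood on opposite sides of the background, with few genes behind the mitochondrial share. Of 18 cytoplasmic genes, 8 had an IDR summit (44.4%), namely SerRS, IleRS, GluProRS, AspRS, ThrRS, ArgRS, AlaRS and AsnRS. Of 15 mitochondrial genes, only ArgRS-m and CysRS-m had one (13.3%). The median IDR signal was 272 over the 10 genes, with a range from 127 to 806, against 208 over the 3391 protein-coding genes with an IDR summit. It was 330 for the 8 cytoplasmic genes and 170 for the 2 mitochondrial ones.

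The strongest peak lay at SerRS (FBgn0031497), which charges the serine transfer RNAs. The peak (chr2L:3037185-3037581) had its summit 25 bp downstream of the SerRS start, in the 5' untranslated region, and the start of CG17260 lies 8 bp away on the other strand. Its pooled signal was 806, and replicates 1, 2 and 3 gave 228, 240 and 333. The ranks of 274, 564 and 427 placed it high in every library, with a pooled rank of 412.

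IleRS (FBgn0027086), which charges isoleucine transfer RNAs, had the second strongest peak (chr3L:22288314-22288654), 174 bp upstream of its start. Its signal was 125, 183 and 206 in replicates 1, 2 and 3, and its ranks of 973, 915 and 1038 were close to each other. GluProRS (FBgn0005674) is the bifunctional enzyme that charges both glutamate and proline transfer RNAs. Its main peak (chr3R:23958330-23958711) covered the starts of GluProRS and AP-1sigma, with the summit between them. Its signal was 145, 119 and 220 in replicates 1, 2 and 3. The ranks there were 726, 1865 and 939, so replicate 2 placed it lower than the other libraries. The summit was 151 bp upstream of GluProRS and closer, at 109 bp, to the start of AP-1sigma. A second, weak IDR summit with a pooled signal of 117 lay in an intron, 123 bp upstream of an inner TSS of GluProRS.

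AspRS (FBgn0002069), the aspartate enzyme, had a pair of IDR summits on chromosome arm 2R, at 12879967 and 12880168, with pooled signals of 340 and 261. Both lay upstream of an inner TSS, at offsets of -317 and -116 bp, and the closest TSS was that of Nmda1 in each case. The strongest AspRS peak ranked 2124, 1799 and 2014 in replicates 1, 2 and 3, with signals of 75.3, 122 and 137. ThrRS (FBgn0027081), the threonine enzyme, had a peak (chr2L:12103376-12103701) 160 bp upstream of its start. Its signal was 95.1, 98.9 and 118 in replicates 1, 2 and 3, and its ranks were 1518, 2481 and 2441. ArgRS (FBgn0027093), the arginine enzyme on X, had a peak (chrX:15844069-15844498) 139 bp upstream, with signals of 68.0, 69.4 and 98.6 and ranks of 2412, 4150 and 3135. In all these genes the 3 libraries placed the peak inside their own strongest 8424.

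The weakest cytoplasmic IDR peaks lay at AlaRS and AsnRS. AlaRS (FBgn0027094), the alanine enzyme, had its summit 2 bp inside the transcribed region (chr2L:8381547-8381976). The strongest AlaRS summits of replicates 1, 2 and 3 had signals of 29.9, 68.2 and 53.9 and ranks of 6016, 4249 and 6449. They lay at offsets of -52, 35 and -47 bp, so replicates 1 and 3 placed them upstream of the start and replicate 2 downstream. A second AlaRS summit, 200 bp upstream in the 3' untranslated region of CG13392, had a pooled signal of 101. AsnRS (FBgn0086443), the asparagine enzyme, had a peak (chr2L:19132012-19132441) 273 bp upstream of its start and 96 bp from that of DCTN6-p27. Replicate 1 gave a signal of 17.6, against 77.7 and 123 in replicates 2 and 3. The ranks of 9604, 3483 and 2328 put replicate 1 apart, outside its strongest 8424 peaks. The strongest AsnRS summit also moved between libraries, from an offset of -324 bp in replicate 1 to -90 and -113 bp in replicates 2 and 3.

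Among the mitochondrial enzymes, ArgRS-m (FBgn0037526) had the strongest peak (chr3R:7886714-7887143), with an intergenic summit 116 bp upstream of its start. Its signal was 51.1, 58.4 and 90.6 in replicates 1, 2 and 3, and its ranks were 3383, 5183 and 3518. CysRS-m (FBgn0033900) had a peak on 2R with its summit at 14161375, 113 bp upstream of CysRS-m and 55 bp from the start of O-fut1. Its signals of 26.3, 45.1 and 46.3 gave ranks of 6767, 7140 and 7638. In 12 cases the symbols pair a cytoplasmic with a mitochondrial gene for the same amino acid, and arginine was the single one with an IDR summit at both. Of these 12 pairs, 5 had it at the cytoplasmic gene alone (alanine, asparagine, aspartate, isoleucine and serine). It was found at the mitochondrial gene alone in 1 pair (cysteine) and at neither in 5 (leucine, methionine, tryptophan, tyrosine and valine). The split is read beside the 24.3% of all protein-coding genes with an IDR summit and was not tested. It rests on the same summits as the class counts and adds nothing independent to them. GluProRS, which has no partner of its own symbol, had an IDR summit, and the mitochondrial enzymes for the same amino acids, GluRS-m and ProRS-m, had none.

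**Figure D1:**
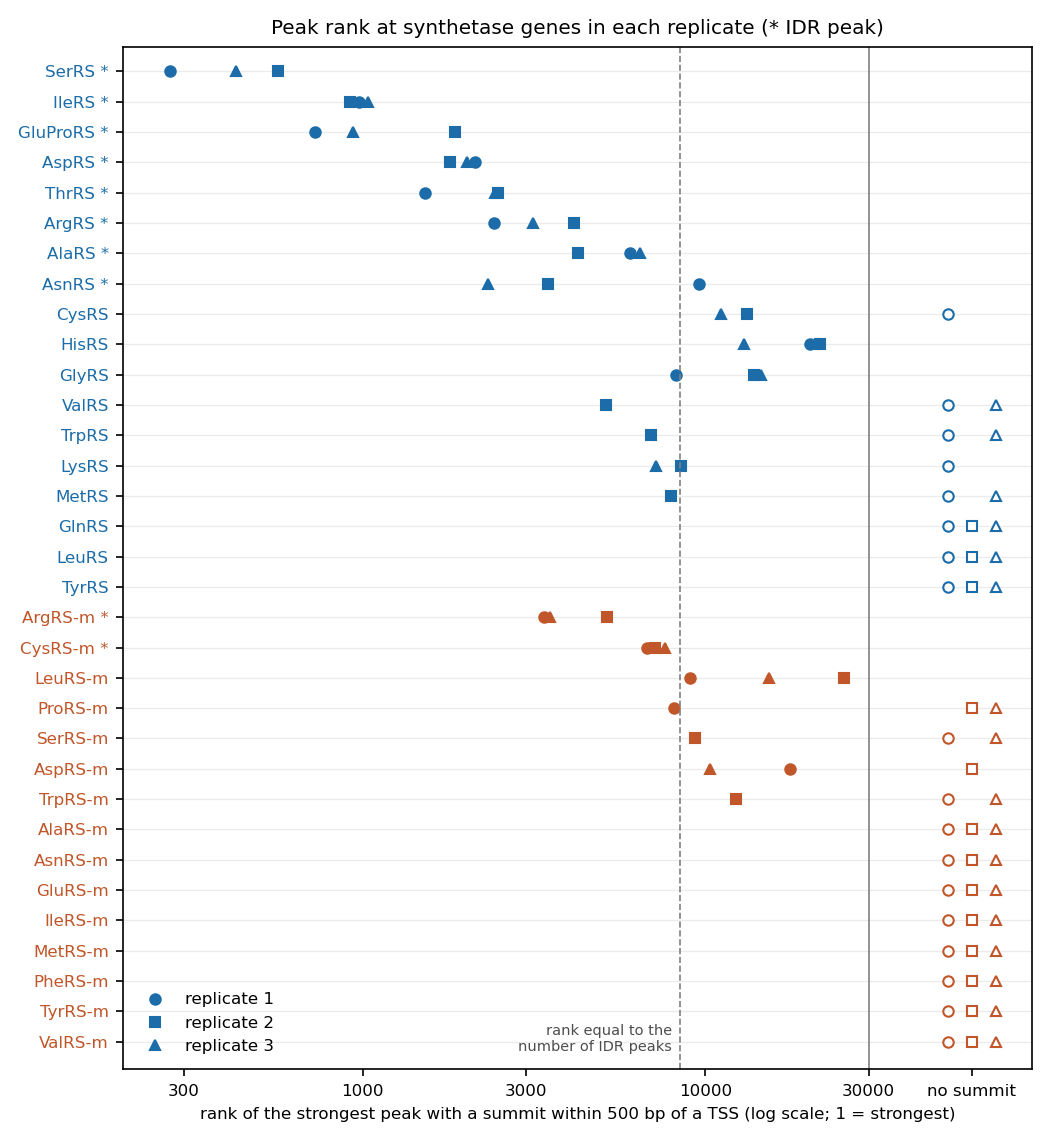
Rank of the strongest peak near a TSS for each of the 33 synthetase genes (rows; blue cytoplasmic, orange mitochondrial) in the list of each replicate (symbols), on a log axis with the strongest peaks to the left and open symbols for no summit. SerRS leads with ranks from 274 to 564, and the 8 cytoplasmic IDR genes head their class. Open symbols in every replicate mark 8 mitochondrial and 3 cytoplasmic genes, and 40.1% of all protein-coding genes have no summit in any replicate.

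A further 4 genes had a pooled relaxed summit and none in the IDR set, whose weakest peak had a signal of 93.7. CysRS, HisRS, GlyRS and LeuRS-m had pooled signals of 76.8, 63.7, 56.0 and 48.5, with pooled ranks from 10140 to 14730. CysRS had signals of 25.4 and 31.6 in replicates 2 and 3 and no summit in replicate 1. HisRS had 8.52, 14.6 and 26.5, GlyRS 21.1, 24.2 and 23.3, and LeuRS-m 18.8, 11.9 and 22.0 in replicates 1, 2 and 3. In replicate 1 GlyRS ranked 8243, inside the strongest 8424, and LeuRS-m ranked 9051. Apart from GlyRS in replicate 1, no library placed a summit of these genes among its strongest 8424 peaks.

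Another 8 genes had a summit in a replicate's list but none in the pooled list. LysRS, the lysine enzyme, ranked 8517 in replicate 2 and 7160 in replicate 3, and AspRS-m ranked 17720 in replicate 1 and 10340 in replicate 3. ValRS, TrpRS, MetRS, SerRS-m and TrpRS-m were listed by replicate 2 alone, with ranks of 5132, 6945, 7959, 9315 and 12262. ProRS-m was listed by replicate 1 alone, at rank 8084. No list held a summit at GlnRS, LeuRS, TyrRS, AlaRS-m, AsnRS-m, GluRS-m, IleRS-m, MetRS-m, PheRS-m, TyrRS-m or ValRS-m. These are 3 of 18 cytoplasmic and 8 of 15 mitochondrial genes. Over all protein-coding genes, 40.1% had no summit in the whole list of any replicate. All 32-mers within 250 bp of the TSSs of all 33 genes occur once on the main chromosomes, so repeated sequence was not found at any of them. For the 23 genes without an IDR summit near a TSS, the closest IDR summit lay between 841 bp (LeuRS-m) and 25004 bp (AsnRS-m) from a TSS, with a median of 7486 bp.

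The difference between the classes was then measured inside each library. Among the strongest 8424 peaks of a replicate, the share of cytoplasmic genes with a summit was 44.4% in replicate 1, 61.1% in replicate 2 and 9 of 18 in replicate 3, and the share of mitochondrial genes was 20.0%, 13.3% and 13.3%. The background was 22.0%, 27.4% and 25.5% of protein-coding genes in the same lists. The cytoplasmic share was above it in 3 of 3 libraries and the mitochondrial share below it in 3 of 3. The mitochondrial shares stand for 3, 2 and 2 of 15 genes in replicates 1, 2 and 3, and in replicate 1 the share was near the background. The cytoplasmic share exceeded the mitochondrial one by 36.3 percentage points ± 11.7 (SD, n = 3). Every library scores the same 18 and 15 genes, so this SD is the spread between libraries. Neither the SD nor the test that follows measures whether the classes of genes differ. The two-sided exact permutation test over the 3 replicates, which flips the sign of each library's difference, gave p = 0.25, the smallest that 3 replicates allow, so this design cannot reach a lower p whatever the difference. The median peak score, minus log2 of a peak's rank over the number of peaks with 0 for a gene with none, was 0 for the mitochondrial genes in every library. For the cytoplasmic genes replicates 1, 2 and 3 gave 0, 0.50 and 0.12, a mean difference of 0.20 ± 0.26 (SD, n = 3), which is within the spread.

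In the whole lists of 30000 peaks the cytoplasmic shares were 55.6%, 83.3% and 66.7% in replicates 1, 2 and 3, against a background of 37.9%, 50% and 46.1%. The mitochondrial shares were 33.3%, 33.3% and 26.7%. A summit in all 3 whole lists was found for 10 of 18 cytoplasmic and 3 of 15 mitochondrial genes, against 29.0% of protein-coding genes. Over the 13 synthetase genes with a summit in all 3 lists, the Spearman correlation of signals was 0.84 for replicates 1 and 2, 0.81 for 1 and 3, and 0.97 for 2 and 3. These points share their libraries and control, and the correlations are given as a description.

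**Figure D2:**
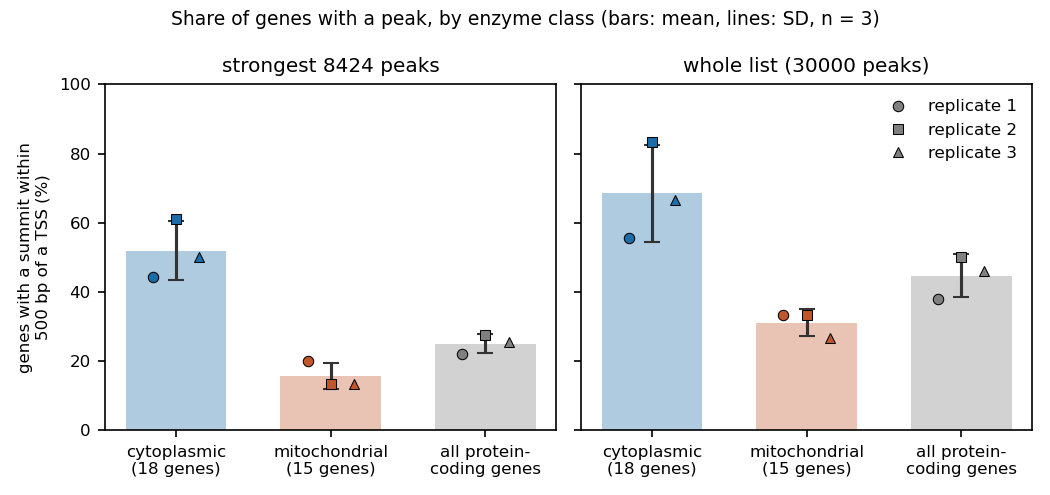
Percent of genes with a summit within 500 bp of a TSS, among the strongest 8424 peaks of each replicate (left) and in its whole list (right), with points for replicates, bars for the mean and lines for the SD. In each replicate the cytoplasmic genes (44.4% to 61.1% on the left) lie above all protein-coding genes and the mitochondrial genes (13.3% to 20.0%) below. On the left the mitochondrial points stand for 2 or 3 of 15 genes, and that of replicate 1 lies near all protein-coding genes.

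The neighbourhood of the genes differed between the classes too. Of 18 cytoplasmic genes, 14 (77.8%) had the TSS of another protein-coding gene on the opposite strand within 500 bp, as did 7 of 15 mitochondrial genes (46.7%) and 27.8% of all protein-coding genes. Across all protein-coding genes an IDR summit was found at 41.4% of those with such a neighbour and 17.7% of those without. Among synthetase genes it was found at 9 of 21 with a neighbour (42.9%) and 1 of 12 without (8.33%), that 1 being AlaRS. With a neighbour, 7 of 14 cytoplasmic genes and 2 of 7 mitochondrial genes (28.6%) had an IDR summit. Without one, 1 of 4 cytoplasmic and 0 of 8 mitochondrial genes had it. The part of the neighbours in the class difference was not tested. A summit between a pair of starts cannot be assigned to either gene from these lists.

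The IDR summits sat mostly upstream of a TSS of the gene. The strongest summit lay upstream of the nearest own TSS in 8 of 10 genes, with a median offset of -145 bp, against 82.8% of genes and a median of -130 bp over all protein-coding genes with an IDR summit. The exceptions were SerRS and AlaRS. At AspRS the nearest TSS is an inner one, so the summit counted as upstream lies inside the gene, in an intron. The 10 genes held 13 IDR summits in all. Of these, 7 were intergenic, 3 lay in 5' untranslated regions, 2 in introns and 1 in a 3' untranslated region, and none in coding exons. The same split over other IDR summits near a TSS is not given, so these counts are a description only. Base composition at the summits was AT-rich, with a median of 71.3% A and T in the 101 bp around the 13 summits, against 65.3% around the 3307 IDR summits within 500 bp of any TSS. Synthetase genes without an IDR summit were AT-rich at the matching place too. At 139 bp upstream of their 5' end, the median distance over the 13 summits, they had a median of 74.3% (23 genes), against 65.3% over all protein-coding genes.

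**Figure D3:**
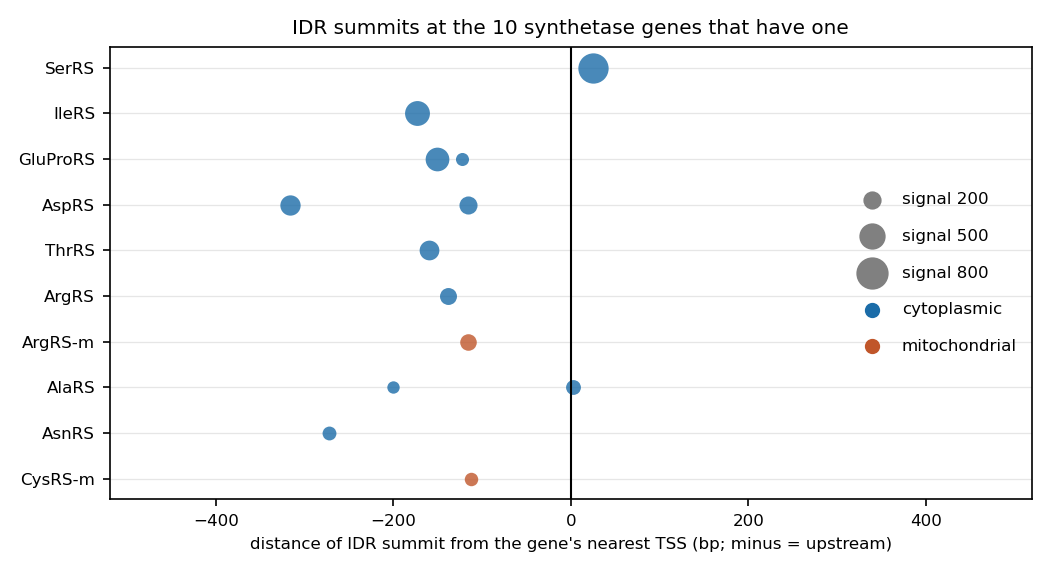
Position of each IDR summit relative to the nearest TSS of its gene (bp, minus for upstream) at the 10 synthetase genes with one, with the area of each point rising with the authors' signal. Summits lie upstream except those of SerRS at 25 bp and AlaRS at 2 bp downstream.

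By enzyme group, the counts were small and the groups were formed with the peaks known. They are read beside the 24.3% of all protein-coding genes with an IDR summit, and no group was tested against it. Of the cytoplasmic enzymes of catalytic class II, AlaRS, AsnRS, AspRS, SerRS and ThrRS had an IDR summit and GlyRS, HisRS and LysRS had none, which is 5 of 8. Of class I, ArgRS and IleRS had one, 2 of 9. GluProRS joins an enzyme of each class and was counted in neither. Of the mitochondrial enzymes the counts were 0 of 6 in class II and 2 of 9 in class I. Of the 8 enzymes of the multisynthetase complex, ArgRS, AspRS, GluProRS and IleRS had a summit and GlnRS, LeuRS, LysRS and MetRS had none, against 4 of the 10 other cytoplasmic enzymes. None of the scaffold genes AIMP1, AIMP2 and AIMP3 had an IDR summit. AIMP2 had a pooled relaxed signal of 27.3 and, among the replicates, a summit in replicate 2 alone (23.4). AIMP3 had signals of 17.2 and 21.3 in replicates 2 and 3 and no pooled summit, and AIMP1 had no summit in any list.

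Genes of the same pathway whose symbols the rule does not match were counted from a list of 16, of which 15 were found, Mtfmt being the one not matched. Of the 15, 5 had an IDR summit (33.3%, background 24.3%), a share near the background at this number of genes. The phenylalanine enzyme of the cytoplasm is made of subunits from a pair of genes, and alpha-PheRS had a pooled signal of 168, with 23.4, 71.2 and 69.3 in replicates 1, 2 and 3, while beta-PheRS had no summit in any list. Slimp, a mitochondrial relative of SerRS, had a pooled signal of 131. GatA, a subunit of the amidotransferase that makes glutaminyl-tRNA in mitochondria, had 245 and no summit in replicate 1, and GatB and GatC had none in any list. The gene crc, which encodes the fly homolog of the stress factor ATF4, had 213, and eEF1alpha1, the factor that brings charged transfer RNAs to the ribosome, had 294. Gcn2, the kinase that senses uncharged transfer RNAs, had no summit, nor had mEFTs. The genes mEFTu1 and eEF1alpha2 had summits in relaxed lists only.

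Sequence motifs, of core promoters and of other factors, were searched on both strands. The window ran from 250 bases before to 50 bases after the annotated 5' end of each gene. The E-box of core promoters, CAGCTG, was present in 16 of 33 synthetase promoters (48.5%), against 17.6% of the promoters of all protein-coding genes. It was found in 9 of 18 cytoplasmic and 7 of 15 mitochondrial promoters, and in 5 of the 10 genes with an IDR summit and 11 of the 23 without. By neighbourhood, 11 of 21 synthetase genes with an opposite-strand neighbour and 5 of 12 without had it, against 25.0% and 14.8% of all protein-coding genes. Of the 20 matches in synthetase promoters, 15 had their centre within 60 bp of the 5' end, against 55.1% of the 2777 matches in all promoters. These shares are a description without a test.

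The matches are shown with 12 bases on each side, in the direction of the gene and with every CAGCTG in capitals, because this motif had the widest gap, among the 8 searched, between its share in synthetase promoters and in all promoters. One match is given for each of 12 genes, and the matches of the other 4 genes are not shown. AlaRS-m holds a pair of copies inside the bases printed.
ArgRS (chrX:15844175-15844204, minus strand): gcgtgacatcacCAGCTGttatcgttatcg
GluProRS (chr3R:23958346-23958375, minus strand): tgtagacgttagCAGCTGgccgtactcgtg
HisRS (chrX:18515447-18515476, plus strand): gcgcagaaaaagCAGCTGaaagctggaaaa
IleRS (chr3L:22288574-22288603, plus strand): cagtgctgtcgtCAGCTGattatcaaggat
SerRS (chr2L:3037515-3037544, minus strand): gactattttgaaCAGCTGctaaaagcaagt
TrpRS (chr3R:9267019-9267048, minus strand): tttgcagcgcaaCAGCTGattttccagagt
AlaRS-m (chr3L:5146024-5146053, plus strand): atagaaCAGCTGCAGCTGgtgagcacgctt
ArgRS-m (chr3R:7887054-7887083, plus strand): gtgatgtcaaaaCAGCTGatgtgcagcgat
GluRS-m (chr3L:16417153-16417182, minus strand): tctagtttcgatCAGCTGtttggggtaaac
LeuRS-m (chr3L:4825851-4825880, plus strand): gatgcagagaaaCAGCTGttcgattgtaga
MetRS-m (chr3R:14259979-14260008, minus strand): gcactggtggcaCAGCTGttcaatgttata
TrpRS-m (chr3L:17849688-17849717, plus strand): tatcactgttcaCAGCTGtcgtaccggctt

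The other motifs stood closer to their shares in all promoters. The DRE, TATCGATA, was present in AlaRS, ArgRS, IleRS, TrpRS and PheRS-m (15.2% of synthetase promoters, 9.36% of all), and at AlaRS its centre lay 18 bp from the IDR summit. CGATA, a core of the site of the insulator factor BEAF and contained in the DRE, was in 63.6% of synthetase promoters and 47.3% of all. Motif 1, GGTCACAC, was in GlnRS, AsnRS-m, AspRS-m and ProRS-m (12.1%, against 7.69%), none of which had an IDR summit. Over all protein-coding genes with an IDR summit its share was 11.1%, so its absence from 10 promoters says little. GAGAG was in 18.2% against 29.7%. It was in 4 of the 10 promoters with an IDR summit and 2 of the 23 without. Over all protein-coding genes with an IDR summit its share was 31.5%, close to the 29.7% of all promoters. The E-box CACGTG was in GlnRS and LeuRS-m (6.06%, against 4.20%), the ATF4-type sequence TGATGNAA in CysRS alone (3.03%, against 4.07%), and the cyclic AMP response element TGACGTCA in none (0.437% of all). Within 100 bp of the 13 IDR summits, CGATA was found at 5, CAGCTG at 3 and GAGAG at 2, against 33.4%, 10.6% and 24.4% of the IDR summits within 500 bp of any TSS. The DRE was found at 1, at AlaRS (6.02% of those summits), and TGACGTCA at 1, the weaker AspRS summit (0.544%), outside the promoter window of that gene.

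**Figure D4:**
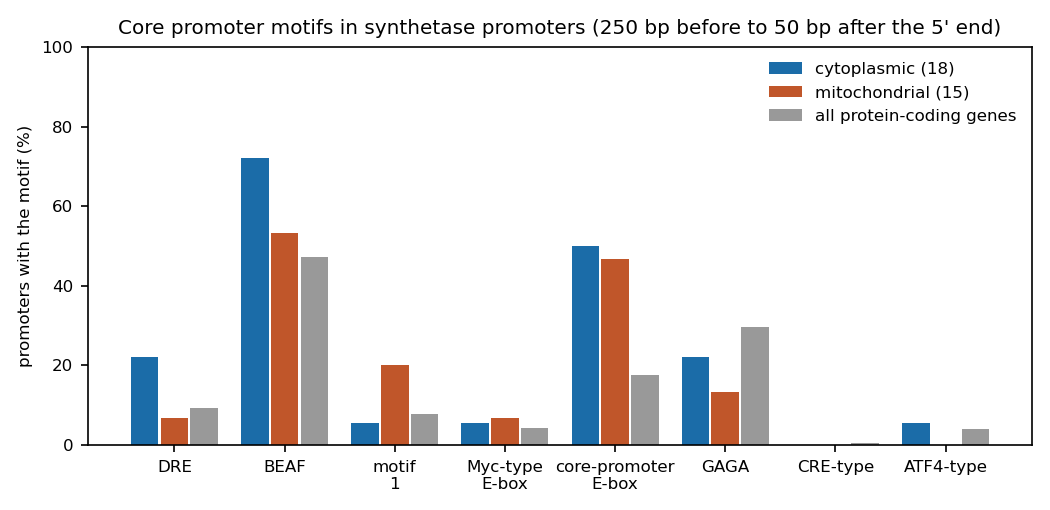
Percent of promoters that hold each motif searched, for the 18 cytoplasmic genes, the 15 mitochondrial genes and all protein-coding genes. The core-promoter E-box stands at 9 of 18 and 7 of 15 in the synthetase classes and 17.6% in all promoters.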

How the data were processed

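The peak lists of the dm6 build were used. Per the headers of the README files, the authors made relaxed lists from the alignments of single libraries and of the pool, each against 1 control file, and took the IDR set from those lists. No source used here names the aligner, the peak caller or the IDR threshold. The signal column, deposited by the authors with no stated scale, was compared here by rank within a list. The authors' summit offset was written as a 1-based position. The dm3 lists were not used here, and depth per sample is unknown.

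Genes and TSSs came from the Ensembl release 115 annotation, without transposable elements, and sequences from the NCBI genome of the same assembly, in which all dm6 peaks lie inside the chromosomes. Promoter windows start from the outermost 5' end of each gene. The replicates' strongest 8424 peaks were used to match the size of the IDR set. Members and lists were chosen with earlier results of these data known. Named with all values are the members with an IDR summit (at most 8 per class by signal), those with a pooled relaxed summit only, and GluProRS. Classes were compared by their counts and, over replicates, with an exact permutation test. Alternatives were other windows, stricter or replicate-supported peaks, 5' ends only, peak overlap in place of summits, own closest TSS, and the phenylalanine subunit genes. The counting step was tested on simulated peaks. Scripts ran on Python 3.11.15 with scipy 1.17.1, matplotlib 3.10.9, pandas 2.3.3 and numpy 2.4.6.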

Additional observations from a re-analysis of the deposited data

How the results depend on the processing

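The count of synthetase genes with an IDR summit was 10 of 33 in the main setting. It was lowest at 7, with the strongest 4212 IDR peaks or only summits whose closest TSS is the gene's own. It was highest at 11, of 33 with a window of 1000 bp and of 35 with alpha-PheRS and beta-PheRS. For the cytoplasmic genes the range was 6 of 18 to 9 of 20, the latter with alpha-PheRS and beta-PheRS. The share of all protein-coding genes is not given for the other windows or peak subsets, so those counts have no background. For the mitochondrial genes, 2 in the main count, it was 1 in the strongest 4212 IDR peaks and 1 with summits closest to the gene's own TSS, where ArgRS-m alone was counted, and 3 with the 1000 bp window, which added LeuRS-m. Leaving out each replicate in turn gave 9 to 10 synthetase genes in all, 7 to 8 cytoplasmic and 2 mitochondrial. AsnRS was lost without replicate 2 or 3. The authors made the IDR set from all 3 replicates, so these counts still depend on the library left out. Counting each IDR interval once, an alternative chosen after the data were seen, gave 10. The class difference in share of genes with a peak, 36.3 percentage points, ranged from 30.7 (5' ends only) to 37.4 (whole lists) and from 30.6 to 42.2 with a replicate left out, and the smallest exact p stayed at 0.25 with 3 replicates. The difference in median peak score, 0.20, was 1.73 with the whole replicate lists, in which more genes have a score above 0. It was 0.06 with 5' ends only, where replicate 2 alone was above 0, 0.10 with a 200 bp window, and 0.06 (without replicate 2) to 0.31 (without replicate 1) with a replicate left out. The classes were compared within each library; a replicate block between groups of samples does not arise, since the 3 libraries form 1 group. Depth is unknown, so no detection limit is given for genes without a peak.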
